A study of Mus musculus with 7 samples.

Results

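The contractile machinery of skeletal muscle was followed through 45 genes for the sarcomere and for calcium handling, in healing soft tissue from the mouse mandible. The genes were chosen by name, as members of the thin and thick filaments, the Z disc, the calcium channels, stores and pumps, and the energy supply of muscle fibres, and all 45 were found among the 49164 gene rows with counts. Fast-fibre isoforms exceeded their slow partners per kilobase in every library for 9 of 10 isoform pairs. Of the 44 genes that could be tested, 36 rose with the level of 12 other muscle genes, where 12.7% of all tested genes did. Without WT replicate 3 and IL17KO replicate 3, 0 of the 44 rose, where 0.00643% of all tested genes did. Of the 9 slow isoforms tested in all 7 libraries, 2 rose with that level and 1 fell, where 10.0% of all tested genes fell. Between the genotypes, 0 of the 44 passed the test, where 0.156% of all tested genes did.

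Polyadenylated RNA was sequenced from 7 mouse samples of muscle and soft callus, collected on day 5 after a 1.5-mm drill hole was made in the mandible. The 4 WT libraries came from littermates of the knockouts, and the 3 IL17KO libraries from Il17af-/- mice, which lack the genes for interleukins 17A and 17F. All 7 samples came from injured tissue, and the labels give neither age, sex nor strain background. Whether every library comes from its own animal is not stated in the labels, and p-values therefore cover only the spread between these samples.

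A sarcomere is the repeating contractile unit of a muscle fibre, in which thick filaments of myosin slide along thin filaments of actin that are anchored in Z discs. At excitation, voltage sensors in the surface membrane open the ryanodine receptor of the internal store, the released calcium binds troponin on the thin filament, and pumps return it to the store. Fast and slow fibres use different isoforms of many of these proteins, encoded by separate genes. Jaw-closing muscles of the mouse consist mainly of fast fibres, and injured muscle also holds new fibres that express embryonic isoforms.

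Library totals ran from 18539904 to 26271176 counts, so that 3 counts correspond to 0.111 to 0.162 CPM, the count per gene scaled to library size. WT replicate 3 and IL17KO replicate 3 stood apart from the other libraries, as the ends of a first principal component that held 50.1% of the variance. The level of muscle transcripts in each library was read from 12 muscle genes outside the 45, the muscle reference. These were Ckmt2, Eno3, Pygm, Ampd1, Pgam2, Cox6a2, Cox7a1, Fbp2, Phkg1, Phka1, Des and Sgca. The muscle reference level was their mean log2 CPM, centred over the 7 libraries. It was −0.01, 0.13, −1.42 and 0.54 in WT replicates 1 to 4 and 0.21, −0.62 and 1.17 in IL17KO replicates 1 to 3. How far these 12 genes lean towards fast or mature fibres was not tested. The 8 fibroblast and callus markers summed to 53869 CPM in WT replicate 3 and 26258 in IL17KO replicate 3, the highest and the lowest of the 7, and 5 of the 8 fell with the muscle reference, while Dcn and Lum were higher in IL17KO replicate 3 than in WT replicate 3, by 1.29 and 1.08 times. Mitochondrially encoded transcripts took 5.71% of counts in WT replicate 3 and 15.0% in IL17KO replicate 3, and 8.10 to 10.9% in the others. Summed leukocyte markers ran from 2715 to 3936 CPM, smooth muscle markers from 573 to 1343 and markers of regenerating and immature muscle from 5173 to 11232. The immature sum was highest in WT replicate 1 and stood at 6797 in IL17KO replicate 3. Lyz2, at 1974 to 3151 CPM, made up most of the leukocyte sum. The ratio of IL17KO replicate 3 to WT replicate 3 was 1.15 for Lyz2, the highest of the 8 leukocyte markers, whose median was 0.605. In whole tissue, fewer muscle fibres and less RNA per fibre cannot be told apart. Of 6 cardiac markers, Nppa, Myl7 and Mybpc3 reached at most 0.185 CPM, Tnni3 1.37 and Myh6 3.41, while Myl4, which immature skeletal muscle also expresses, ran from 457 to 748. Il17a had 0 counts in every library and Il17f at most 1, so the counts cannot check the genotype labels.

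The promoters of 2 matched pairs are shown because each pairs a fast gene that followed the muscle reference with a slow gene that was not called. The RefSeq sequences (GRCm38.p6) run from 250 bases before to 50 bases after the annotated start, on the gene's own strand. Capitals mark an E-box, CANNTG, the motif of MyoD-family factors, and in Casq2 also a match to the MEF2 motif. Tnnc2, the fast skeletal troponin C, lies on the minus strand with its window at chr2:164779685-164779984, and Tnnc1, the slow and cardiac troponin C, on the plus strand at chr14:31208062-31208361. Casq1, the fast calsequestrin, lies on the minus strand at chr1:172219846-172220145 and Casq2, the slow and cardiac calsequestrin, on the plus strand at chr3:102086165-102086464.
Tnnc2: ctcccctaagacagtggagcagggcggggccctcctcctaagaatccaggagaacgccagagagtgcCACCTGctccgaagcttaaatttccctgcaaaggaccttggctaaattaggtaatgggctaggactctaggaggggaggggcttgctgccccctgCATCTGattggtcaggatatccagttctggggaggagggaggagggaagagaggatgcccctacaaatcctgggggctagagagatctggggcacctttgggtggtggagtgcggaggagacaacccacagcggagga
Tnnc1: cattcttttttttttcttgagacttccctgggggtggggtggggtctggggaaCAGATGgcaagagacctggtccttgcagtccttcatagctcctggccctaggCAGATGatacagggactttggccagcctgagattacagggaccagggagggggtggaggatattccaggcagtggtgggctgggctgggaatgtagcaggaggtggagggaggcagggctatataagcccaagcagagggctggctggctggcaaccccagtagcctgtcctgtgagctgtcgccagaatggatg
Casq1: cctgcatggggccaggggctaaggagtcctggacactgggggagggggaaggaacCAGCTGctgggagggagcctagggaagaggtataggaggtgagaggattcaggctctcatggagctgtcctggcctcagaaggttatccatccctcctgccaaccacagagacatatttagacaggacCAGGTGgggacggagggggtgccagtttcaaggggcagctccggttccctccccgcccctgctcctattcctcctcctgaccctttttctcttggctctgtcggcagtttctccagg
Casq2: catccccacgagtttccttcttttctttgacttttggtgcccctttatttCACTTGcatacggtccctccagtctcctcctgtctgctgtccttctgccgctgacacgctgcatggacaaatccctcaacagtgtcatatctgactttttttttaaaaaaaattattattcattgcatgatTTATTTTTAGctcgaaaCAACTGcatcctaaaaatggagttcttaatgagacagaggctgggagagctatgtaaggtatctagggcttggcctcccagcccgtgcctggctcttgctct

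All 4 windows held 2 E-boxes, and Casq2 alone of them held a MEF2 match. Promoter windows were available for 31 of the 45 genes. An E-box was present in 28 of these 31 windows (90.3%) and in 75.0% of the windows of 27025 mouse genes. The MEF2 motif, sought on both strands like all motifs here, was present in 5 windows (16.1%, against 3.70% of all genes), those of Casq2, Myoz2, Pvalb, Ttn and Xirp2. The CArG box, the motif of serum response factor, was in 4 windows (12.9%, against 1.81%), those of Acta1, Ldb3, Myl3 and Myom1. The sequence TATAAA was in 4 windows (12.9%, against 15.7%). A match is a run of letters in a window and not a measured binding site.

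**Figure D1:**
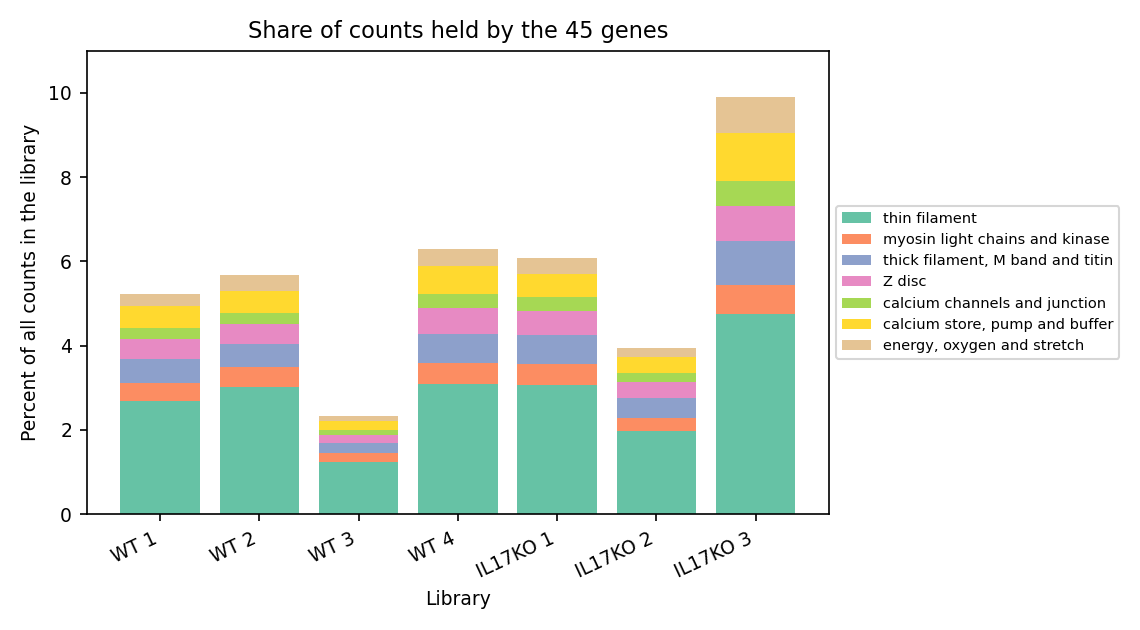
Percent of all counts in each library held by the 45 genes, stacked by role. The bars reach from 2.33% in WT replicate 3 to 9.89% in IL17KO replicate 3, and thin filament genes make up the largest part of each bar.

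Together the 45 genes held 5.22, 5.67, 2.33 and 6.30% of the counts in WT replicates 1 to 4 and 6.08, 3.95 and 9.89% in IL17KO replicates 1 to 3. Both extremes were the libraries at the ends of the muscle reference, and the groups overlapped. Thin filament genes alone took 1.24 to 4.76% of a library. Per kilobase of exon, the highest level was that of Acta1, the skeletal alpha-actin, at 3406 ± 1397 CPM per kb in WT (SD, n = 4) and 5436 ± 3008 in IL17KO (SD, n = 3). Next came Tnnt3 at 2803 ± 1332 CPM per kb in WT (SD, n = 4) and 4143 ± 2575 in IL17KO (SD, n = 3) and Tnnc2 at 2231 ± 1034 CPM per kb in WT (SD, n = 4) and 3279.6 ± 2208 in IL17KO (SD, n = 3). The order of the 6 highest levels per kilobase, Acta1, Tnnt3, Tnnc2, Mylpf, Tpm2 and Tnni2, was the same in both groups. Neighbours in that order differed by less than the larger of their SDs, except Tpm2 and Tnni2 in WT. Over the 7 libraries, the median SD of log2 CPM was 0.72 for the 45 genes and 0.22 for all 15399 tested genes.

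**Figure D2:**
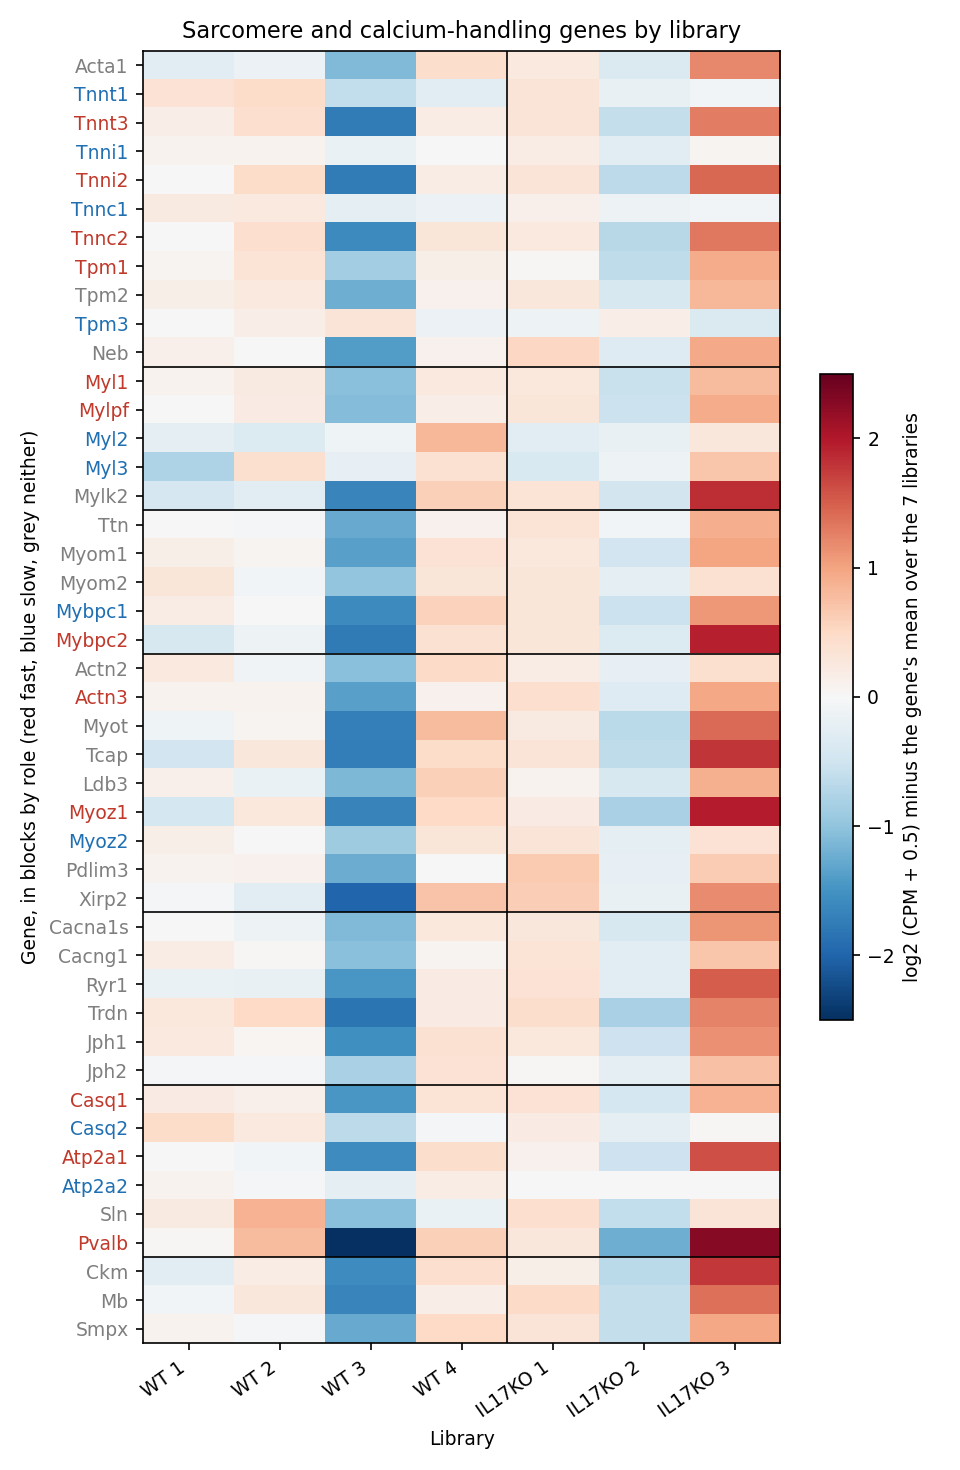
Heat map of the 45 genes in 7 libraries. Colour is log2 (CPM + 0.5) minus the gene's mean over the libraries, with full colour reached at 2.5 in either direction. Gene names are red for fast, blue for slow and grey for neither, and lines separate roles and groups. WT replicate 3 is the lowest library for 41 of the 45 genes and IL17KO replicate 3 the highest for 35.

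In the values that follow, CPM are listed in the order of WT replicates 1 to 4 and then IL17KO replicates 1 to 3, and log2 fold changes are IL17KO minus WT with their SE, from edgeR's quasi-likelihood test. The adjusted p was at least 0.987 for each of the 44 tested genes in that test. WT replicate 3 was the lowest library for 41 of the 45 genes, and IL17KO replicate 3 the highest for 35. For each of the 45 genes the 2 groups overlapped, whereas 3.89% of all tested genes did not overlap (1.95% with IL17KO higher and 1.94% with IL17KO lower).

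Among the thin filament genes, the fast troponins spanned a wide range between libraries and the slow ones a narrower one. Tnnt3, the fast troponin T that ties troponin to tropomyosin, stood at 5106, 6132, 1355 and 5154 CPM in WT and 5674, 2996 and 11003 CPM in IL17KO. Its slow counterpart Tnnt1 stood at 887, 938, 448 and 569 CPM in WT and 859, 604 and 653 CPM in IL17KO. IL17KO replicate 3 held 8.12 times the Tnnt3 level of WT replicate 3, against 1.46 times for Tnnt1. Tnni2, the fast inhibitory subunit troponin I, had 1501, 2052, 443 and 1701 CPM in WT and 1882, 953 and 4067 CPM in IL17KO, and the slow Tnni1 had 301, 301, 253 and 283 CPM in WT and 319, 232 and 294 CPM in IL17KO. The ratio of these same 2 libraries was 9.18 for Tnni2 and 1.16 for Tnni1. The calcium-binding subunit Tnnc2 had 1839.5, 2445, 603 and 2252 CPM in WT and 2162, 1133 and 4575 CPM in IL17KO, and Tnnc1 had 202, 205, 145 and 156 CPM in WT and 189, 157 and 164 CPM in IL17KO. For all 3 subunits the fast gene was lowest in WT replicate 3 and highest in IL17KO replicate 3, whereas the slow genes peaked in WT replicate 2 or IL17KO replicate 1. The fold changes were 0.56 ± 0.55 for Tnnt3, 0.69 ± 0.57 for Tnni2 and 0.56 ± 0.55 for Tnnc2, each about as large as its error. Those of Tnnt1, Tnni1 and Tnnc1 were −0.01 ± 0.28, −0.01 ± 0.15 and −0.06 ± 0.16.

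Tropomyosin covers the myosin sites on actin at rest. Tpm1, the alpha-tropomyosin of fast fibres, stood at 3019, 3624, 1584 and 3164 CPM in WT and 2922, 1854 and 5476 CPM in IL17KO. Tpm3, the slow-fibre tropomyosin, which also makes forms found in non-muscle cells, ran the opposite way at 353, 401, 445 and 321 CPM in WT and 327, 398 and 276 CPM in IL17KO. Tpm3 was highest in WT replicate 3 and lowest in IL17KO replicate 3, the reverse of the fast thin filament genes, and summed fibroblast and callus markers had the same highest and lowest libraries. The part of fibroblast and callus cells in the values of Tpm3, or of Tpm1 and Tpm2, was not tested. Tpm2, the beta-tropomyosin, ran from 2051 CPM in WT replicate 3 to 8545 in IL17KO replicate 3, with the other WT libraries between 5198 and 5684. Acta1 stood at 4890.2, 5343, 2734 and 7959 CPM in WT and 6952, 4589 and 13507 CPM in IL17KO, and Neb, the giant protein nebulin that lines the thin filament, at 3368, 3110.02, 1171 and 3313 CPM in WT and 4380.4, 2458 and 5931 CPM in IL17KO. Neb had the smallest unadjusted p of the thin filament genes (0.158, log2 fold change 0.64 ± 0.41). Both IL17KO replicates 1 and 3 lay above every WT library for Neb, while IL17KO replicate 2 lay below 3 of them.

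The light chains clasp the neck of the myosin head. Myl1, the fast essential chain, stood at 2084, 2299, 952 and 2339 CPM in WT and 2353, 1332 and 3413 CPM in IL17KO, and Mylpf, the fast regulatory chain, at 2119, 2427, 992 and 2357 CPM in WT and 2579.7, 1446 and 3987 CPM in IL17KO. The slow chains were near the limit of detection. Myl3, the slow and ventricular essential chain, stood at 0.230, 1.13, 0.575 and 1.11 CPM in WT and 0.450, 0.626 and 1.51 CPM in IL17KO, and Myl2, the regulatory chain of slow and ventricular muscle, at 0.0919, 0.0540, 0.144 and 0.741 CPM in WT and 0.0817, 0.117 and 0.355 CPM in IL17KO. Myl2 was the only one of the 45 genes below the filter on low counts, and it was not tested. Its highest library was WT replicate 4, and Myh6, the cardiac alpha-myosin heavy chain, reached 1.93 CPM in that library and 3.41 in IL17KO replicate 3, against at most 0.548 in the others. Mylk2, the skeletal light chain kinase, which phosphorylates the regulatory chain, had 56.9, 63.1, 24.0 and 116 CPM in WT and 97.2, 55.5 and 275 CPM in IL17KO. IL17KO replicate 3 was far above the other libraries for Mylk2, and WT replicate 4 was the next highest. Its fold change was the largest of the light chain group, at 1.13 ± 0.60 (unadjusted p = 0.0928).

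Among thick filament genes, myosin-binding protein C gave the largest fold change of the 44. This protein runs in stripes along the thick filament and has a fast form, Mybpc2, and a slow form, Mybpc1, that is also made in fast fibres. Mybpc2 stood at 558, 679, 215 and 959 CPM in WT and 914, 583 and 2852 CPM in IL17KO, and Mybpc1 at 1238, 1082, 358 and 1607 CPM in WT and 1332, 744 and 2308 CPM in IL17KO. The Mybpc2 fold change was 1.27 ± 0.60 (unadjusted p = 0.0662) and that of Mybpc1 0.45 ± 0.51. IL17KO replicate 3 held 13.3 times the Mybpc2 level of WT replicate 3, yet IL17KO replicate 2 lay within the WT range. Myom2, a protein of the M band in the middle of the sarcomere, had the largest p of the group, with 662, 509, 271 and 656 CPM in WT and 662, 449.9 and 696 CPM in IL17KO and a fold change of 0.20 ± 0.31. Its partner Myom1 ran from 178 CPM in WT replicate 3 to 906 in IL17KO replicate 3. Ttn, the titin spring that spans from the Z disc to the M band, ran from 1173 to 5268 CPM between the same libraries.

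Z disc genes all had positive fold changes, 9 of 9 where 50.6% of all tested genes did, with 0 called where 0.156% of all genes were. The fold changes of Actn2, Myot, Ldb3 and Myoz1 fell below 0 in at least 1 fit with a single library left out. Actn3, the fast-fibre alpha-actinin that crosslinks actin, ran from 591 CPM in WT replicate 3 to 2951 in IL17KO replicate 3, with WT replicates 1, 2 and 4 all between 1603 and 1624. Actn2, the alpha-actinin of all fibres, had the largest p of the group, with 869.8, 689, 352 and 1019 CPM in WT and 829, 635 and 969 CPM in IL17KO and a fold change of 0.15 ± 0.33. The smallest p was that of Pdlim3, a PDZ and LIM protein that binds alpha-actinin, at 0.117. Pdlim3 had 305, 309, 121 and 284 CPM in WT and 453, 249 and 446 CPM in IL17KO, so that IL17KO replicates 1 and 3 lay above all WT libraries and IL17KO replicate 2 below 3 of them. Its fold change was 0.59 ± 0.34. Myoz1 and Myoz2, the fast and slow calsarcins that tether calcineurin to the Z disc, were both lowest in WT replicate 3 and highest in IL17KO replicate 3. Myoz1 had 112, 184, 47.7 and 215 CPM in WT and 176, 86.7 and 594 CPM in IL17KO, and Myoz2 had 92.4, 83.1, 45.2 and 104 CPM in WT and 105, 70.2 and 108 CPM in IL17KO. Myoz1 was 12.4 times higher in IL17KO replicate 3 than in WT replicate 3, and Myoz2 2.39 times. Of the remaining genes, Tcap, the telethonin that caps titin, ran from 117 to 1343 CPM, Myot, the actin-bundling myotilin, from 81.3 to 716, Ldb3, a PDZ and LIM protein of the Z disc, from 160 to 638, and Xirp2, an actin-binding Xin-repeat protein, from 194 to 1747. Each of these 4 was lowest in WT replicate 3 and highest in IL17KO replicate 3.

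The genes of the calcium release machinery had 6 of 6 positive fold changes (50.6% of all genes) and 0 called (0.156% of all genes). Those of Trdn, Jph1 and Jph2 fell below 0 in at least 1 fit with a single library left out. Ryr1, the ryanodine receptor through which calcium leaves the store, had 1209, 1195, 497 and 1578 CPM in WT and 1749, 1131 and 3865 CPM in IL17KO. It had the smallest unadjusted p of the 44 genes (0.0626), with a fold change of 1.01 ± 0.47. IL17KO replicates 1 and 3 lay above every WT library for Ryr1, but replicate 2 lay below WT replicates 1, 2 and 4. Trdn, the triadin that links the release channel to calsequestrin, had the largest p of the group, with 665, 789, 156 and 641 CPM in WT and 750.2, 317 and 1313 CPM in IL17KO and a fold change of 0.50 ± 0.57. The voltage sensor subunit Cacna1s ran from 145 to 672 CPM and its gamma subunit Cacng1 from 106 to 355. Jph1 and Jph2, the junctophilins that hold surface and store membranes together, ran from 42.9 to 277 and from 81.9 to 240 CPM.

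In the store itself, the fast genes again varied more than the slow ones. Casq1, the fast calsequestrin that binds calcium inside the store, had 725, 689.6, 228 and 794 CPM in WT and 812, 465 and 1146 CPM in IL17KO, and Casq2 had 417, 360.1, 194 and 293 CPM in WT and 350.3, 256 and 312 CPM in IL17KO. Atp2a1, the fast SERCA pump that returns calcium to the store, had 3126, 3003, 1050.5 and 4273 CPM in WT and 3403, 2204 and 9551 CPM in IL17KO. Atp2a2, the slow SERCA pump, with a form that is also made by non-muscle cells, had 544, 495, 438 and 581 CPM in WT and 513, 506 and 509.8 CPM in IL17KO. Atp2a1 differed 9.09-fold between IL17KO replicate 3 and WT replicate 3 and had a fold change of 0.82 ± 0.57, the smallest p of the group (0.185). Atp2a2 differed 1.16-fold between these libraries, with a fold change of −0.01 ± 0.14. Sln, the sarcolipin that inhibits SERCA, had 69.0, 109, 28.3 and 52.4 CPM in WT and 79.2, 38.7 and 74.4 CPM in IL17KO. It was highest in WT replicate 2, its fold change was −0.01 ± 0.42, and its unadjusted p was the largest of the 44 genes (0.979). Pvalb, the parvalbumin that buffers calcium in the fastest fibres, had 340.3, 573, 49.6 and 506 CPM in WT and 403, 142 and 1606 CPM in IL17KO. Named here after its values were seen, Pvalb had the widest ratio of IL17KO replicate 3 to WT replicate 3 of the 45 genes, 32.4. The median of that ratio over the 44 tested genes was 4.82, and the lowest was 0.620, for Tpm3.

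In the energy and stretch group, Ckm, the muscle creatine kinase that regenerates ATP, had 1479.7, 2025, 604 and 2381 CPM in WT and 1982, 1128 and 6071 CPM in IL17KO, the smallest p of the 3 genes (0.167) and a fold change of 0.92 ± 0.61. Smpx, a small stretch-responsive protein, had 82.4, 76.4, 32.3 and 109.8 CPM in WT and 98.0, 51.6 and 152 CPM in IL17KO, the largest p (0.362) and a fold change of 0.42 ± 0.43. Mb, the oxygen-binding myoglobin, ran from 410 CPM in WT replicate 3 to 3347 in IL17KO replicate 3. All 3 genes were lowest and highest in these libraries.

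Fast isoforms were the more abundant partner per kilobase in every library for 9 of the 10 pairs. Length was taken as all annotated exon bases of a gene, over all its transcripts, and the ratios depend on it. Without that scaling, in WT replicate 3 the log2 ratio of CPM was 0.81 for Tnni2 over Tnni1 and 0.08 for Myoz1 over Myoz2. Tnnt3 exceeded Tnnt1 by 4.21 to 23.5 times per kilobase, Tnni2 exceeded Tnni1 by 4.21 to 33.3 times and Tnnc2 exceeded Tnnc1 by 5.41 to 36.4 times. For the pumps, Atp2a1 exceeded Atp2a2 by 4.19 to 32.8 times, and for the tropomyosins Tpm1 exceeded Tpm3 by 3.34 to 18.6 times. The ratios were smaller for Myoz1 over Myoz2, 1.91 to 9.95 times, and for Casq1 over Casq2, 1.65 to 5.16 times. Myl1 and Mylpf also exceeded Myl3 and Myl2 in every library, but these slow genes lay too near the floor of 3 counts for a ratio to be given. Only Mybpc2 against Mybpc1 lay on both sides of equality, from 0.565 to 1.55 times.

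**Figure D3:**
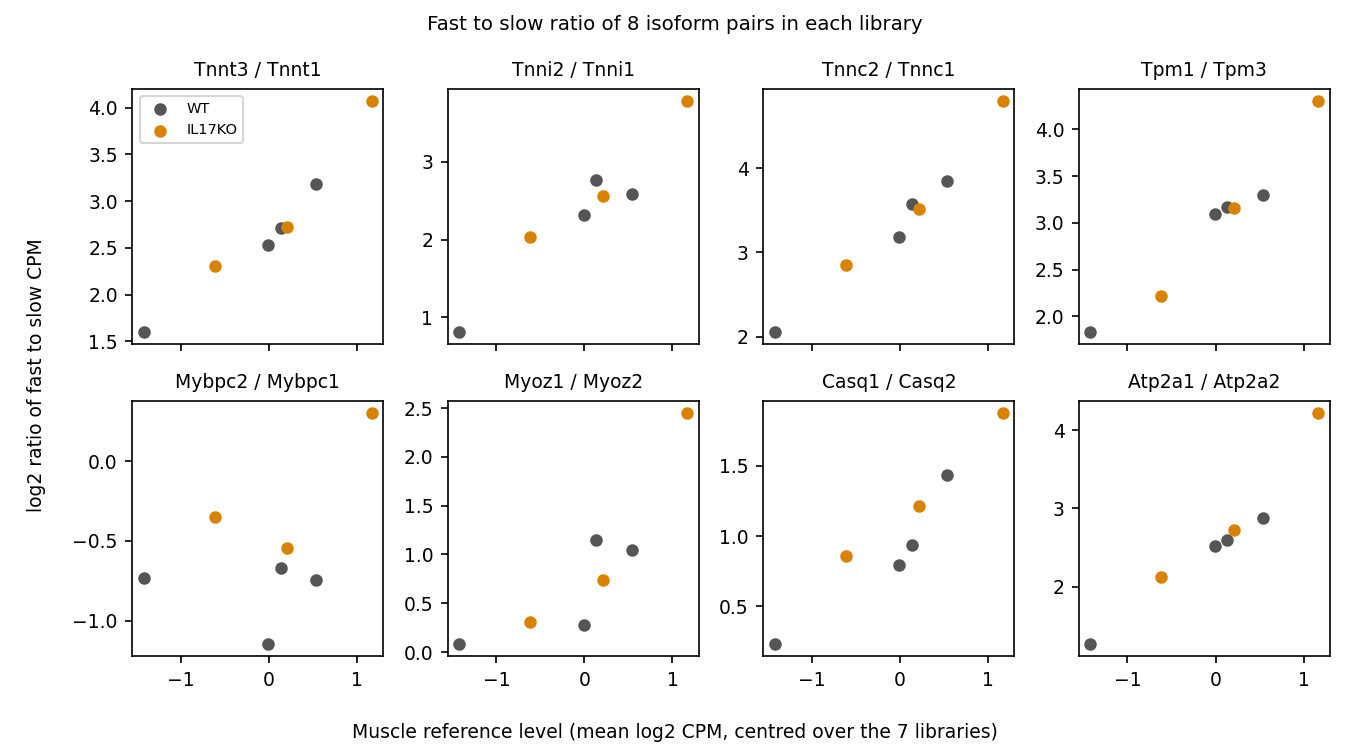
The log2 ratio of fast to slow CPM for the 8 pairs without the light chains (vertical axis, a separate scale in each panel) against the muscle reference level of the library (horizontal axis), with 1 point per library. WT replicate 3, at the far left, is the lowest point in 7 panels, and IL17KO replicate 3, at the far right, the highest in 8.

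The mean fast to slow ratio was lowest in the library with the least muscle reference and highest in the one with the most. Averaged over the 8 pairs without the light chains, whose slow genes lay near the floor, log2 fast minus slow was 1.70, 2.03, 0.89 and 2.19 in WT and 2.01, 1.54 and 3.23 in IL17KO. WT replicate 3 was the lowest and IL17KO replicate 3 the highest, and the groups overlapped. The group means were 1.70 ± 0.58 (SD, n = 4) and 2.26 ± 0.87 (SD, n = 3), a difference of 0.56 that was smaller than either SD and was not tested, since it is a score over chosen genes. With the light chain pairs included, where the prior of 0.5 CPM weighs on the slow gene, the difference was 0.51. All 8 pairs had a higher mean ratio in IL17KO, by 0.38 (Tpm1 over Tpm3) to 0.71 (Atp2a1 over Atp2a2). Without WT replicate 3 and IL17KO replicate 3 the difference over the 8 pairs was −0.19, and it was 0.29 without the first alone and 0.08 without the second alone. The ratio of Mybpc2 to Mybpc1 was the only one of the 8 whose groups did not overlap, with log2 values of −1.15, −0.67, −0.73 and −0.74 in WT and −0.54, −0.35 and 0.30 in IL17KO. That pair was picked out after its values were seen, and among single genes 3.89% did not overlap between the groups.

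**Figure D4:**
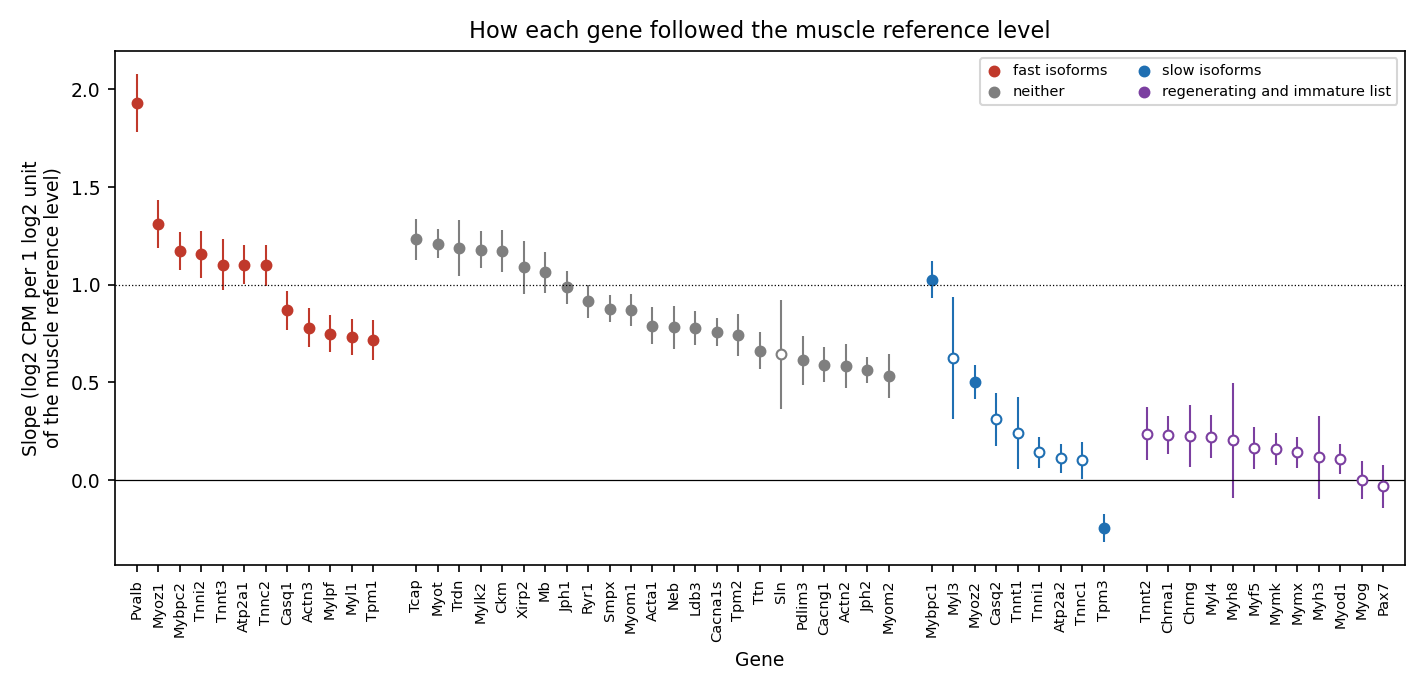
Slope of each gene on the muscle reference level, in log2 CPM per log2 unit, with bars of 1 SE, for fast, neither, slow and the regenerating and immature muscle list. Filled points passed an adjusted p of 0.05 and open points did not. All 12 fast genes are filled and lie between 0.72 and 1.93, and all 12 genes of the immature list are open.

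To measure how each gene followed the muscle reference level, the slope of its log2 CPM on that level was fitted by edgeR. The fit was over the 7 libraries, with the genotype in the model. A slope of 1 means a gene that changes in proportion to the reference. Of the 44 tested genes 36 rose with the reference, where 12.7% of all 15399 tested genes did, and 1 fell, where 10.0% did. The members and the reference genes were measured in the same libraries and are all muscle genes, so this count describes shared variation. All 12 fast genes rose, with a median slope of 1.10, and so did 22 of the 23 genes assigned to neither fibre type, all except Sln. Of the 9 tested slow genes 2 rose, Mybpc1 (1.03 ± 0.09) and Myoz2 (0.50 ± 0.09), and the median slope of the 9 was 0.24. Slow names the isoform here. Which fibres made these transcripts was not tested, and the slow light chains Myl2 and Myl3 lay near the floor. Tpm3 fell, with a slope of −0.24 ± 0.07 (adjusted p = 0.0299), a call that held without WT replicate 1 or 2 and ended without any other library. The slopes of Tnnt1, Tnni1, Tnnc1 and Atp2a2 were 0.24 ± 0.18, 0.14 ± 0.08, 0.10 ± 0.09 and 0.11 ± 0.08, and those of Casq2 and Myl3 0.31 ± 0.14 and 0.63 ± 0.31, none of which passed the test. Pvalb had the steepest slope, 1.93 ± 0.15, and its slope stayed between 1.85 and 2.06 with any single library left out.

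In each of the 9 pairs with both slopes, the fast gene had the steeper one. The differences between partners were not tested. Atp2a1 had a slope of 1.10 ± 0.10, against 0.11 for Atp2a2, and Tnnc2 had 1.10 ± 0.10, against 0.10 for Tnnc1. The closest were Myl1 at 0.73 and Myl3, which lay near the floor, at 0.63, followed by Mybpc2 at 1.17 ± 0.10 and Mybpc1 at 1.03. Genes of regenerating and immature muscle lay near the slow troponins: 0 of 12 were called, with slopes from −0.03 (Pax7) to 0.24 (Tnnt2), among them Myh3 and Myh8, the embryonic and neonatal myosins, at 0.12 and 0.20. Between 33 and 37 of the 44 genes rose when any single library was left out, where 6.27 to 13.3% of all genes did. The median slopes were then at most 1.15 for fast genes and 0.06 (without WT replicate 3) to 0.37 (without WT replicate 4) for slow genes. Without WT replicate 3 and IL17KO replicate 3, however, 0 rose, and 0.00643% of all genes did. In those 5 libraries the median slopes were 0.79 for fast and 0.11 for slow genes. With the further sarcomere list of 38 other genes as the reference, 37 of the 44 rose where 11.1% of all genes did, and the median slopes were 1.65 for fast and 0.47 for slow genes.

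Between the genotypes, 0 of the 44 tested genes were called at an edgeR adjusted p of 0.05, where 0.156% of all tested genes (24 of 15399) were, 12 higher (0.0779%) and 12 lower (0.0779%). At an unadjusted p under 0.05, 0 of the 44 stood, where 3.04% of all genes did. DESeq2 called 0 of them too, with 1 at an unadjusted p under 0.05, and 0.364% of all genes called. Positive fold changes were found for 37 of the 44, where 50.6% of all genes were positive, and the median log2 fold change was 0.47, against 0.00 for all genes. By fibre type the medians were 0.58 for the 12 fast genes, 0.57 for the 23 assigned to neither and −0.01 for the 9 slow genes. The direction ended without IL17KO replicate 3. Without that library, 19 of the 44 were positive and the median was −0.02, and with WT replicate 3 left out as well 8 were positive and the median was −0.21. Without WT replicate 3 alone, 35 were positive and the median was 0.21.

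**Figure D5:**
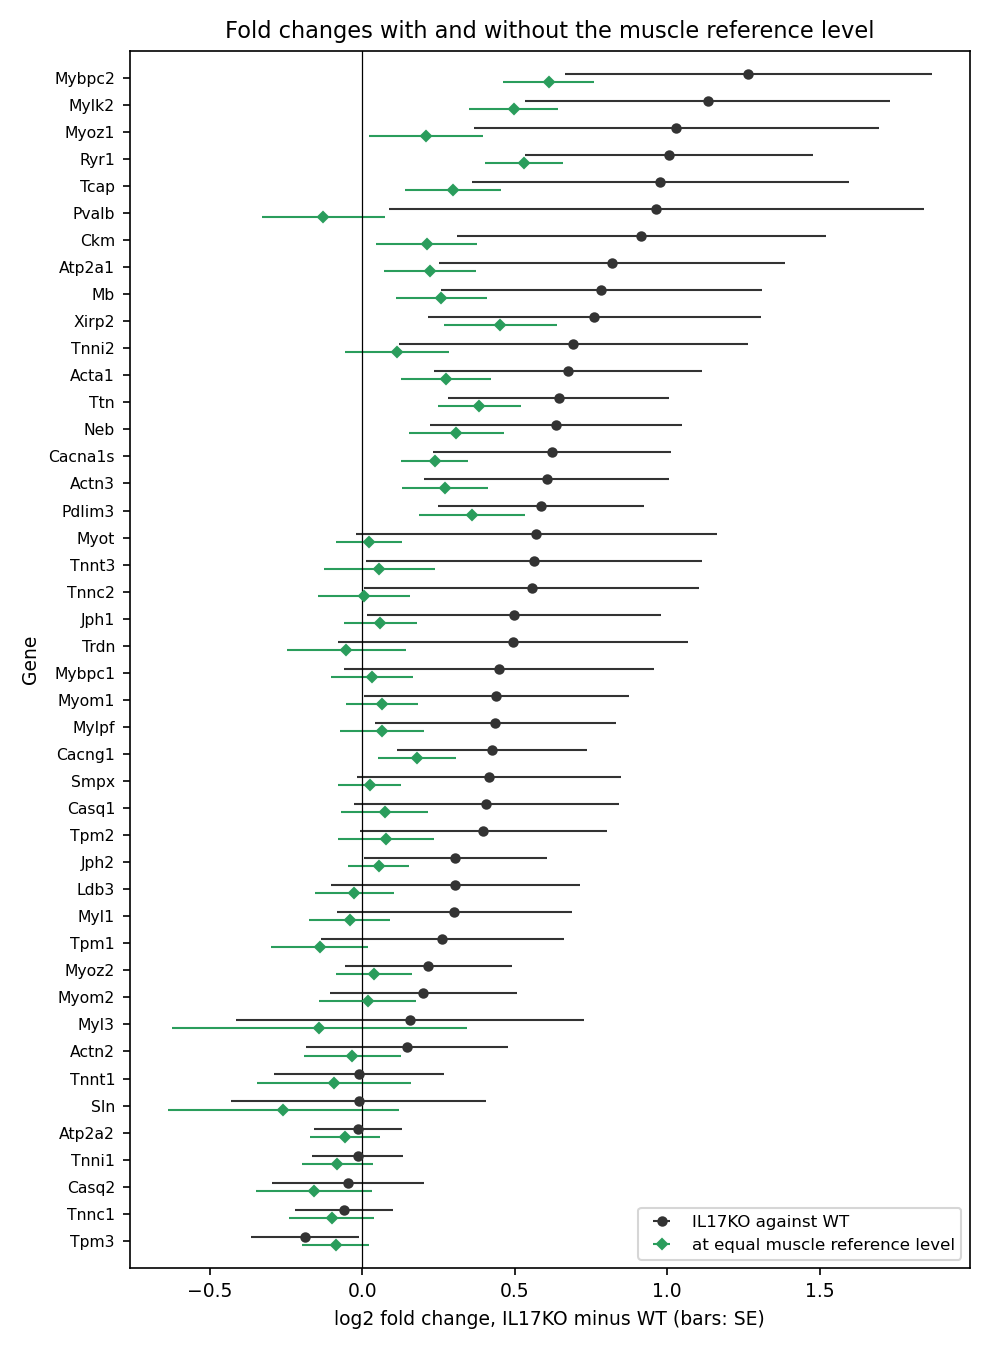
Log2 fold change, IL17KO minus WT, of the 44 tested genes with bars of 1 SE, from the comparison of the groups (black circles) and at an equal muscle reference level (green diamonds). At equal reference the values draw in towards 0 and their errors shrink, and Mybpc2, Ryr1 and Mylk2 lie farthest to the right.

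With the muscle reference level as a covariate, the fold changes moved towards 0. The median over the 44 genes was 0.06, 30 were positive where 52.3% of all genes were, and 0 were called where 0.260% of all genes were. With the further sarcomere list as the reference the median was −0.05. At an unadjusted p under 0.05, 5 of the 44 stood, all positive, where 4.46% of all genes did. Of these, the release channel gene Ryr1 (ENSMUSG00000030592) had a log2 fold change of 0.53 ± 0.13 (unadjusted p = 0.00152, adjusted p = 0.282 by edgeR). The fast myosin-binding protein gene Mybpc2 (ENSMUSG00000038670) had 0.61 ± 0.15 (unadjusted p = 0.00163, adjusted p = 0.297), and the kinase gene Mylk2 (ENSMUSG00000027470) 0.50 ± 0.15 (unadjusted p = 0.0058, adjusted p = 0.588). The titin gene Ttn had 0.38 ± 0.14 (unadjusted p = 0.0167) and the Xin-repeat gene Xirp2 0.45 ± 0.19 (unadjusted p = 0.0331). DESeq2 with the same covariate called Mybpc2 and Ryr1 higher (adjusted p = 0.0035 and 0.00137), with 0.461% of all genes called. Without a filter on low counts, edgeR called Mybpc2 and Mylk2 (adjusted p = 0.00755 and 0.0295) but not Ryr1 (adjusted p = 0.0584), with 0.38% of all genes called. The filtered edgeR fit called 0 of the 44 with all 7 libraries. With any single library left out it also called 0, where 0.148 to 0.296% of all genes were called. Its adjusted p then ran from 0.151 to 0.999 for Mybpc2, from 0.200 to 0.999 for Ryr1 and from 0.173 to 0.999 for Mylk2. The DESeq2 and unfiltered fits with the covariate were not repeated with a library left out. The slow genes lay between −0.16 (Casq2) and 0.04 (Myoz2) in this fit.

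A further list held 38 sarcomere and excitation-contraction genes outside the 45. Of its 37 tested genes 0 were called between the genotypes (0.156% of all genes), 35 were positive (50.6% of all genes), with a median of 0.30, and 29 rose with the muscle reference (12.7% of all genes). The smallest unadjusted p was that of Pln, the phospholamban that inhibits slow SERCA, at 0.0536. Pln had 0.276, 0.702, 0.0959 and 0.593 CPM in WT and 1.06, 0.509 and 1.42 CPM in IL17KO, low in every library. Cmya5, a myospryn of the Z disc region, had 728, 744, 259.7 and 1035 CPM in WT and 962, 532 and 2549 CPM in IL17KO and a fold change of 0.96 ± 0.57 (unadjusted p = 0.126). Flnc, the muscle filamin, had 861, 704, 492 and 834 CPM in WT and 1088, 799.7 and 891 CPM in IL17KO and a fold change of 0.36 ± 0.22 (unadjusted p = 0.143). For Pln, Cmya5 and Flnc the groups overlapped, and IL17KO replicate 3 was the highest library for Pln and Cmya5.

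Some counts carry uncertainty from the genes' position and copies. In the GRCm38 annotation 17 of the 45 genes overlap another gene, in each case on the opposite strand, and whether the counting used strand is not given in the sources used here. Tnnc2 shares 592 of its 800 exon bases with Ube2c, a ubiquitin-conjugating enzyme of dividing cells, which stood at 54.0 to 74.9 CPM against 603 to 4575 for Tnnc2. Atp2a1 shares 763 of its 3477 exon bases with Rabep2, which stood at 19.8 to 33.4 CPM. The 45 genes lie on 17 chromosomes, and only Tpm3 has a near-identical copy, Tpm3-rs7, so reads of the pair may have been split or lost.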

How the data were processed

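RNA was measured in 7 libraries, 4 WT and 3 IL17KO. The deposited table gives raw gene counts and a normalized signal, which equals the deposited counts divided by 1 size factor per library and was used only for that check. The submitters' processing notes name GRCm39 as the build, and HTSeq, TopHat, cutadapt, FastQC, bcl2fastq and DESeq2 as tools, without versions. Settings and the strand option of the counting are not stated in them, while the labels name a stranded kit. Blank rows (6250 of 55414) were left out. The columns carry the library names of the sample descriptions, by which they were matched to the titles.

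Counts were tested over all genes with edgeR 4.0.16 in R 4.3.3 (quasi-likelihood test, two-sided, TMM, filterByExpr with a minimum count of 10, Benjamini-Hochberg adjusted p under 0.05), which left 15399 genes. CPM used TMM-scaled library sizes, and log2 ratios a prior of 0.5 CPM. SE was taken as log2 fold change over the root of the F statistic. Library totals were 18539904 to 26271176, and the floor of 3 counts covers counting error only. Libraries of a group differed beyond counting noise (mean chi-square per gene of 22.3 to 237). A second fit added the muscle reference level. Pairs were 10 fast and slow partners. The members, lists and tests were chosen with earlier results of these data known. Every library value is given for the smallest and largest p of each role, both genes of each pair, Acta1, Ryr1, Ckm and Sln, and of the further sarcomere list for the 4 smallest p, 1 of which is not reported here. Alternatives were DESeq2 1.42.0, other scalings and filters, a replicate block, another reference and each library left out. Leaving out both end libraries and a muscle covariate were among them.

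The fits were run on simulated counts with seeded changes. For the group comparison each gene was drawn independently, so that run does not cover the variation between libraries that these genes share. Promoter windows are RefSeq's. Overlaps, exon lengths and copies (BLAST, at least 95% identity over 80% of the length) came from GENCODE M21 for GRCm38, so no coordinates of the count table are given.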

Additional observations from a re-analysis of the deposited data

Results flagged for a closer look

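In the WT group, 1 library stood apart from the other 3 by the gap between values (Dixon's criterion) for 6 of 48 measures checked, where chance flags about 5% of groups. In 5 of these WT replicate 3 was low. It had 2051 CPM of Tpm2, the beta-tropomyosin, with the next WT library at 5198. Neb, the nebulin gene, stood at 1171 CPM there, with the next at 3110. Ttn, the titin gene, had 1173 CPM, with the next at 2770. For Actn3, the fast alpha-actinin, it had 591 CPM, with the next at 1603, and for Pdlim3 121 CPM, with the next at 284. The sixth was Myl2, the slow and ventricular light chain, at 0.741 CPM in WT replicate 4, with the next at 0.144, all near the floor. These measures come from the same libraries and are not independent.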

How the results depend on the processing

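In every setting tried without the muscle covariate, 0 of the 44 genes were called between the genotypes. The number of all genes called (24) was 56 with DESeq2, 42 without a filter, 40 with the muscle covariate and 30 without both WT replicate 3 and IL17KO replicate 3, and 8 to 21 with 1 library left out. With the replicate number as a block 2 genes were called. Whether the numbers pair the samples is not stated in the labels. Deviations of same-numbered libraries correlated at 0.14, −0.30 and −0.56, and 2 of 6 libraries were closest to their own number. These values cannot decide it, because the libraries at the 2 ends of the muscle reference share the number 3. Fold changes were positive for 19 to 42 of the 44 genes with 1 library left out, the lowest without IL17KO replicate 3, and for 8 without WT replicate 3 and IL17KO replicate 3. The median (0.47) was −0.02 to 0.79 with 1 left out and −0.21 without both. The fast minus slow difference (0.51) was 0.11 to 0.86 and −0.16 in the same order. The count rising with the muscle reference (36, where 12.7% of all genes rose) was 33 to 37 with 1 left out, where 6.27 to 13.3% of all genes rose. It was 0 without both, where 5 libraries remain and 0.00643% of all genes rose. At equal reference, 2 genes were called with DESeq2 (Mybpc2 and Ryr1), where 0.461% of all genes were. Without a filter 2 were called (Mylk2 and Mybpc2), where 0.38% of all genes were. Scaling by total counts moved the median of all genes to −0.10 and that of the 44 to 0.34. Depth limits Myl2 and Myl3 alone among the 45. The fast minus slow difference was 0.56 without the light chain pairs. That setting, the further sarcomere list as the reference, and the counts of positive and of rising genes were added after the data were seen. The cause of these differences was not tested.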
